A study of Homo sapiens with 4 samples.

Results

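The histone gene clusters and the extended major histocompatibility complex (MHC) lie next to each other on the short arm of human chromosome 6. Poly(A) regions of this stretch were taken by position alone: every region of chromosome 6, on either strand, with both edges between 25.7 and 33.5 Mb of the hg19 build. This gave 53 regions of the 1503 on chromosome 6 and the 31081 in the whole table. Of these, 7 lay in the histone clusters (26 to 26.3 Mb and 27.7 to 27.9 Mb), 1 in the MHC (29.6 to 33.4 Mb) and 45 in the remaining window. The 1450 other regions of chromosome 6 served for comparison.

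All 4 libraries came from DICER(ex5) cells, a line with hypomorphic DICER derived from the colon cancer line HCT116, and the labels name no treatment. The enzyme Dicer releases mature microRNAs from their hairpin precursors. Each read of the assay is taken to mark a point where a transcript was cleaved and given a poly(A) tail. A count is thus a number of reads at such points, not of molecules. No sequence was used to check these points. The design text describes the libraries as biological replicates, but the labels name no separate cultures or days. The series has no parental line, so stretches of chromosome 6 were compared within each library.

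Replication-dependent histone genes, which make the bulk of the histones during DNA synthesis, mostly yield mRNAs that end in a stem-loop and carry no poly(A) tail. They are cut by machinery in which the stem-loop binding protein and the U7 small nuclear RNA take part. Some histone genes can also use a downstream poly(A) signal, for which transcripts in non-dividing or differentiated cells are known. The MHC carries the class I genes, whose products present peptides to cytotoxic T cells, the class II genes of professional antigen-presenting cells, and between them the class III genes, which include complement factors and tumour necrosis factor. The extended MHC also holds many zinc finger and olfactory receptor genes.

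Regions are given by position and strand as deposited, since the deposited table names no genes and the gene tables at hand are on another build. No sequence of hg19 was used, and none is printed. The check of DICER1 itself was not analysed here. The libraries held 2163977 to 5713530 reads in all. Levels are read counts scaled to the library total (counts per 1e+06 reads, CPM), not divided by length since a read is taken to mark an end. Libraries 1 and 2 resembled each other, as did libraries 3 and 4, and the labels give no batch that tells them apart. Each result is therefore shown by library, and an SD over 4 libraries includes this difference.

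The stretch was weakly read. It held 1845, 705, 2185 and 1451 reads in libraries 1 to 4, which is 0.957% ± 0.0945 of the reads of chromosome 6 (SD, n = 4). In CPM this was 354, 326, 382 and 364, or 357 ± 23.7 (SD, n = 4). The histone clusters gave 30.3 ± 2.41 CPM, the MHC 7.79 ± 0.892 and the remaining window 319 ± 21.4 (SD, n = 4). A single locus, at 26545887 to 26547172 on the plus strand, held 1712 of the 6186 reads of the window, or 27.7%.

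**Figure D1:**
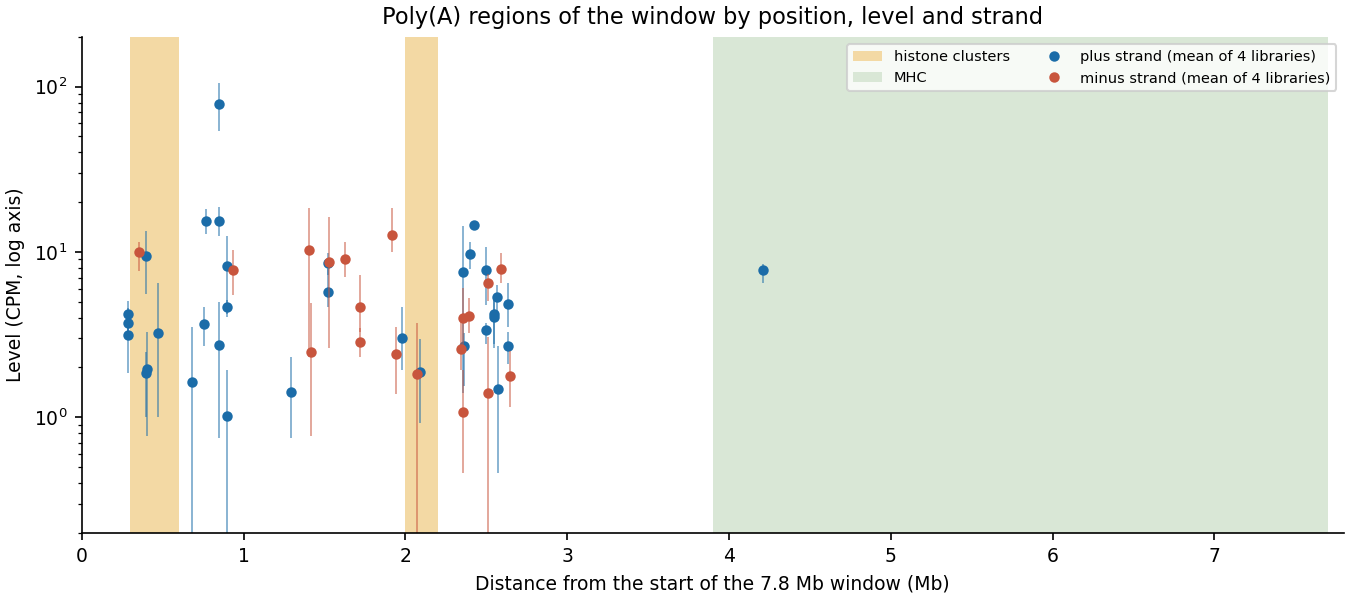
Level of each of the 53 poly(A) regions (CPM, log axis) against distance from the start of the window in Mb. Points are means of 4 libraries, vertical lines run from the lowest to the highest library (lines that reach the bottom of the axis include a library at 0 or under 0.2 CPM), and shading marks the histone clusters and the MHC. Of the 53 regions, 1 lies in the MHC, and 1 region exceeds 20 CPM.

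Poly(A) regions were spread unevenly along the stretch. The histone clusters had 14.0 regions per Mb and the remaining window 12.9, against 8.90 per Mb in the rest of chromosome 6. The MHC had 0.263 per Mb. Its only region lay 313.5 kb past the start of the stretch, and no region followed it in the window. The region-free gap behind it ran from 29913569 to 33540320, 3.63 Mb, and was the second longest of the 1502 gaps between neighbouring regions of chromosome 6. The longest, 4.77 Mb, ran from 57513395 to 62284042. The gap before the MHC region, from 28346603 to 29913542, measured 1.57 Mb and ranked 9. The median gap on the chromosome was 6.83 kb. A transcript end that the table does not list cannot be scored, so these gaps say nothing of the level of MHC transcripts.

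The 7 poly(A) regions of the histone clusters had low levels, dense as they were for the length. They were taken by position, so a region here need not belong to a histone gene. The regions of both clusters and of the MHC are lettered A to H by position. Region A, on the minus strand from 26055916 to 26055966, had 7.68, 9.24, 11.6 and 11.5 CPM in libraries 1 to 4, a mean of 10.0 ± 1.89 (SD, n = 4). It was the highest of the clusters and the only minus-strand region of the first cluster. Region B, on the plus strand from 26097033 to 26097075, had 7.87, 5.55, 13.3 and 11.3 CPM, and libraries 3 and 4 lay above libraries 1 and 2. Regions A and B, 51 and 43 bases wide, were also the widest of the clusters.

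The other 5 histone-cluster regions held 27 to 47 reads each over all libraries. Region C, on the plus strand from 26098564 to 26098579, followed B after 1489 bases and had 2.49, 1.85, 2.10 and 1.00 CPM. Region D, on the plus strand from 26104508 to 26104516, had 0.768, 1.85, 1.93 and 3.26 CPM from 4, 4, 11 and 13 reads. The 95% exact Poisson intervals of its lowest and highest libraries were 0.209 to 1.97 CPM in library 1 and 1.74 to 5.58 CPM in library 4. They overlapped narrowly, which does not show that the levels were alike.

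Region E, on the plus strand from 26171564 to 26171587, ran the other way, with 3.84 and 6.47 CPM in libraries 1 and 2, above the 1.58 and 1.00 CPM of libraries 3 and 4. The second cluster held regions F and G. Region F, on the minus strand from 27772036 to 27772038, was 3 bases wide and the narrowest of the clusters. Libraries 1 and 2 had 19 and 8 reads there (3.65 and 3.70 CPM), and the other 2 libraries had 0, where a count of 0 allows up to 0.525 and 0.753 CPM. Region G, on the plus strand from 27792256 to 27792273, had 1.34, 0.924, 2.98 and 2.26 CPM. Regions A, B, D and G were higher in both of libraries 3 and 4 than in either of the others, E and F were lower, and C overlapped. At D the margin was only 1.93 against 1.85 CPM. How many regions of the whole table separate these libraries was not counted, so this is not read as a trait of the clusters. Intervals and limits cover counting error only, since reads are not independent molecules.

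The MHC region, H, lay on the plus strand from 29913542 to 29913569 and was 28 bases wide. It had 43, 14, 48 and 32 reads, or 8.25, 6.47, 8.40 and 8.03 CPM, a mean of 7.79 ± 0.892 (SD, n = 4). It was the steadiest of the 8 regions relative to its mean. Its level exceeded that of 60.8% of the regions in the rest of chromosome 6. It had no neighbour on its strand within 5 kb and formed a locus alone. A spread over the MHC, or over its class I, II and III parts, could not be given.

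**Figure D2:**
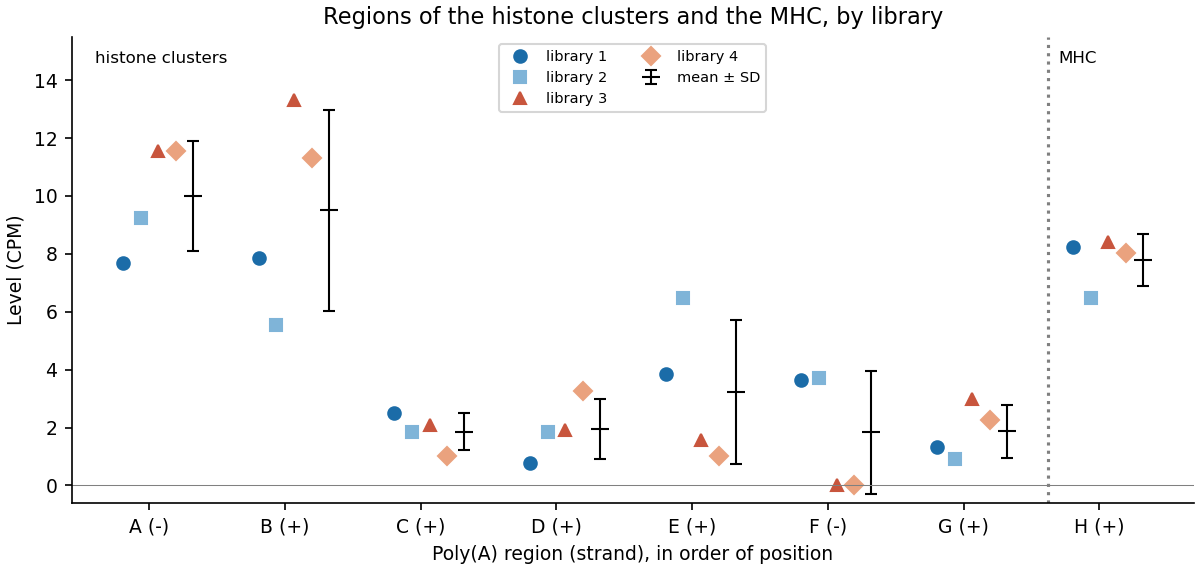
Levels (CPM) of the 7 histone-cluster regions (A to G) and the MHC region (H) in the 4 libraries, with the mean ± SD (n = 4) in black. B reaches 13.3 CPM in library 3, A stays under 12 CPM, C, D, F and G average under 2 CPM, F is at 0 in libraries 3 and 4, and H lies between 6.47 and 8.40 CPM.

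Histone-cluster regions were lower than the rest of chromosome 6 in every library. The median of log2(CPM + 1) was 2.22, 2.23, 1.63 and 1.70 in the histone clusters, against 2.80, 2.81, 2.38 and 2.40 in the rest of chromosome 6. The difference was -0.65 ± 0.08 (SD, n = 4; exact sign-flip permutation test over libraries, two-sided, p = 0.13). This is the smallest p that 4 libraries allow, so the test cannot pass 0.05. By loci, the difference was -1.07 ± 0.15 (SD, n = 4; exact permutation p = 0.13). Its size rests on low counts: with a pseudocount of 5 the difference by regions was -0.35. Of the 7 regions, 5 were below the median level of the rest of chromosome 6.

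The MHC comparison rests on 1 region. Its log2(CPM + 1) was 0.53 ± 0.35 above the median region of the rest of chromosome 6 (SD, n = 4; exact permutation p = 0.13). Set against loci, it was at -0.06 ± 0.37 (SD, n = 4; exact permutation p = 0.875). Among regions with at least 100 reads, it was 1.17 below the median (value -1.17), so no direction can be given.

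The window as a whole was lower than the rest of chromosome 6. All its regions but H ended by 28346603, so the comparison rests on the part before the MHC. Its median of log2(CPM + 1) was 2.33, 2.49, 2.17 and 2.25, a difference of -0.28 ± 0.14 from the rest of the chromosome (SD, n = 4; exact permutation p = 0.13), and lower in 4 of 4 libraries. The gap lay mainly among strong regions. Of the 53 regions, 32 were below the median level of the rest of chromosome 6, and 1 (1.89%) was above its upper quartile, which 25% of the rest exceed by construction. Regions with 1000 reads or more numbered 1 of 53 (1.89%) in the window and 121 of 1450 (8.34%) in the rest. The highest mean was 77.9 CPM in the window and 1603 in the rest of chromosome 6. Among regions with at least 100 reads, 20 in the window and 653 in the rest, the difference of medians was -0.95.

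Median widths of the window and the rest of chromosome 6 were close. The median was 18 bases in the histone clusters, 28 at the MHC region and 25 in the window (95% binomial interval of the median 21 to 30), against 26 (25 to 27) in the rest of chromosome 6. Wide regions of 41 bases or more made up 6 of 53 (11.3%) in the window and 282 of 1450 (19.4%) in the rest. Narrow regions of 5 bases or fewer made up 2 of 53 in the window, 3.77% (95% Wilson interval 1.04% to 12.8%), and 144 of 1450 in the rest, 9.93% (8.50% to 11.6%), and the intervals overlap. In the histone clusters the order was the other way, with 2 of 7 wide (28.6%) and 1 of 7 narrow (14.3%, 95% Wilson interval 2.57% to 51.3%). The histone-cluster median also turned with the read minimum: with at least 100 reads it was 47 bases over 2 regions, against 33 in the rest, so no direction can be given. The narrow regions were F and K, both 3 bases wide on the minus strand. Plus-strand regions outnumbered minus-strand ones by 34 to 19 in the window, against 709 to 741 in the rest. Widths are properties of the common table and were given no test.

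**Figure D3:**
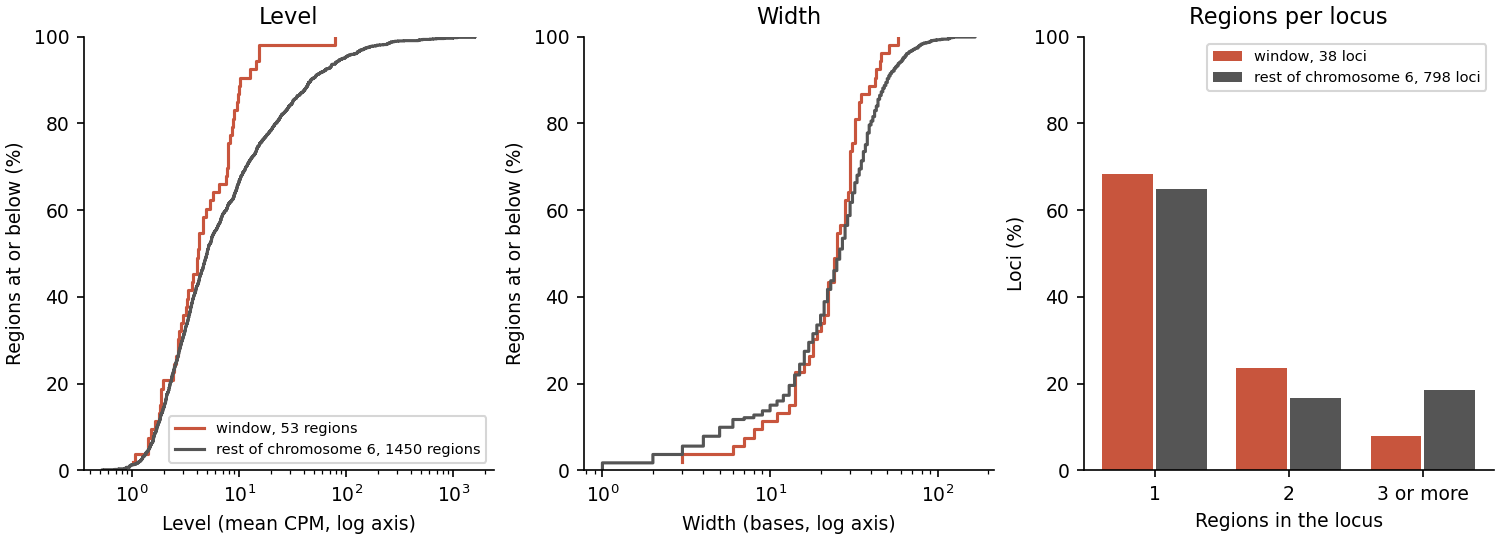
Cumulative share of regions by level (mean CPM, log axis) and by width (bases, log axis), and percent of loci by number of regions, in the window (red, left bars) and in the rest of chromosome 6 (grey, right bars). In the window 1 of 53 regions lies above the upper quartile of the rest, and loci of 3 or more regions make up 7.89% in the window and 18.4% in the rest.

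Loci of the window held fewer regions each on average, but not among loci under 100 reads. Regions of a strand within 5 kb of each other were joined into a locus, which may hold several genes or part of a gene. The window had 38 loci with 1.39 regions each on average and at most 3, and the rest of chromosome 6 had 798 loci with 1.82 each and at most 30. For loci under 100 reads the means were 1.07 in the window and 1.03 in the rest. For loci with 100 to under 1000 reads they were 1.55 and 1.88. A single region was found at 26 loci (68.4%) of the window and 518 (64.9%) of the rest, and 3 or more at 3 (7.89%) and 147 (18.4%). The histone clusters had 6 loci, of which 5 had a single region. By the median, regions also stood further apart: the distance to the previous region of the strand was 52180 bases in the window and 12774.5 in the rest. Counted per Mb the order was the other way outside the MHC, with 14.0 in the histone clusters and 12.9 in the remaining window against 8.90.

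The share of loci with several used ends was then counted in each library, on counts thinned to equal depth, for loci with at least 100 reads. A region counted if it had 3 reads and 5% of its locus. In the window 47.8%, 43.5%, 43.5% and 39.1% of 23 loci had several such regions, against 50.8%, 50.8%, 47.5% and 48.1% of 451 in the rest of chromosome 6. The difference was -5.80 ± 2.82 percentage points (SD, n = 4; exact permutation p = 0.13). It turned to 2.85 with a 10% minimum, so no direction can be given. In the histone clusters it was -11.8 ± 24.3 points over 2 loci (SD, n = 4; exact permutation p = 0.625). Library 4 decided this value, which was 0.333 without it. There region C had 4 reads and 8.16% of its locus before thinning, and fell under 3 reads in the single random thinning used. Pooled over libraries, loci with 100 to under 1000 reads had several passing regions at 10 of 22 (45.5%) in the window and 148 of 314 (47.1%) in the rest. Loci with 1000 reads or more were 1 of 38 (2.63%) and 137 of 798 (17.2%).

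Use of the ends was followed at the 11 loci of the window that had 100 reads or more and several passing regions, numbered 1 to 11 by position. At each, the reads of the most 3' passing region were divided by those of all passing regions. Locus 3, the strongest of the window, on the plus strand from 26545887 to 26547172, had 81.7, 69.8, 121 and 111 CPM. Its most 3' region took 80.3%, 81.1%, 87.6% and 83.2%, a mean of 83.0% ± 3.26 (SD, n = 4), with passing ends 415 bases apart. This was the highest share and the smallest spread of the 11. A weaker upstream region of the locus, at 26545887, fell under 5% of its reads and was the only member that did not pass.

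The histone clusters had 1 such locus, locus 2, which joined regions B and C with ends 1504 bases apart. Its downstream region C took 24.1%, 25.0%, 13.6% and 8.16%, a mean of 17.7% ± 8.19 (SD, n = 4), so that the upstream region B was the stronger in all 4 libraries.

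The other 9 loci had mean shares from 8.85% to 68.9%. The most 3' region took over 50% on average at locus 7 (plus strand, 28196965 to 28201270, 68.9% ± 5.16), locus 11 (plus strand, 28334517 to 28336970, 63.7% ± 8.11) and locus 5 (plus strand, 27223278 to 27224254, 60.5% ± 8.55; SD, n = 4). Locus 9, on the plus strand from 28245302 to 28245996, averaged 48.9% ± 13.3 (SD, n = 4), with 43.8%, 35.3%, 66.7% and 50.0% by library. Locus 6, on the minus strand from 27418517 to 27418607, had ends only 67 bases apart and 39.5% ± 10.1 (SD, n = 4).

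The most 3' region took least at locus 4, on the plus strand from 26599352 to 26600974, with 6.67%, 0%, 19.0% and 9.76%. At locus 8, on the minus strand from 28210019 to 28212439, its share by library was 29.6%, 23.8%, 0% and 4.76%, with libraries 3 and 4 the lowest. Its most 3' region, 6 bases wide, had 16, 5, 0 and 1 reads. Locus 10, on the plus strand from 28269233 to 28270338, had 20.0% ± 8.85 and locus 1, with 3 regions on the plus strand from 25983964 to 25989103, had 27.9% ± 6.75 (SD, n = 4). The median over the 11 loci was 39.0% ± 5.71, and over 229 such loci of the rest of chromosome 6 it was 35.5% ± 0.442 (SD, n = 4). The medians lay closer together than the spread of the window's median over libraries.

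**Figure D4:**
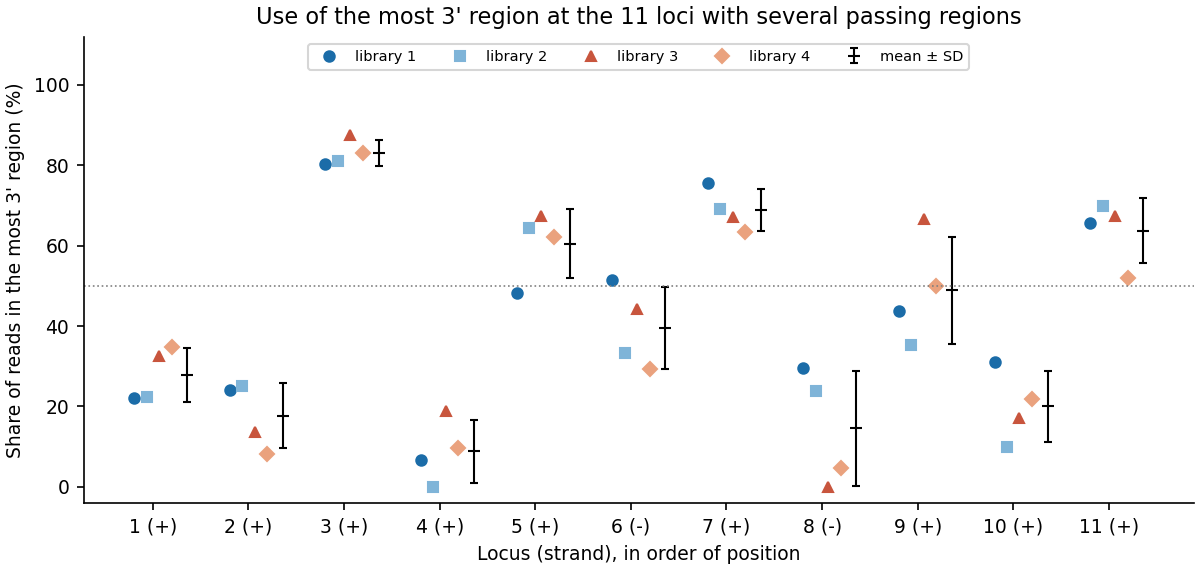
Share of reads (%) in the most 3' passing region at the 11 numbered loci of the window, by library, with the mean ± SD (n = 4) in black. Loci 3, 5, 7 and 11 average over 50%, and locus 8 is lowest in libraries 3 and 4, at 0% and 4.76%.

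By Fisher's exact test on counts of equal depth, with Benjamini-Hochberg adjustment over all 5070 loci of the table, 0 of the 11 loci differed in this share in any of the 6 pairs of libraries. Over the table, 0.256% of loci were called between libraries 1 and 2, 11.1% between 1 and 3, 9.29% between 1 and 4, 16.4% between 2 and 3, 14.3% between 2 and 4 and 0.0986% between 3 and 4. At an unadjusted p under 0.05, 1 of the 11 passed between libraries 2 and 3 and 1 between libraries 2 and 4, where 26.4% and 24.7% of the table did. In the other pairs 0 of the 11 passed, against 7.42% of the table between libraries 1 and 2, 21.0% between 1 and 3, 19.6% between 1 and 4 and 5.56% between 3 and 4. On all reads, without thinning, 2 of the 11 were called between libraries 1 and 3 (loci 3 and 8) and 2 between libraries 2 and 3 (loci 4 and 8). The same setting called 23.4% and 21.9% of the 5070 loci in these pairs, so 2 of 11 is near the background. With loci joined within 10 kb, 1 of 13 was called in each of these pairs, against 12.1% and 17.5% of the table. All but locus 3 held at most 248 reads, and a p that misses the threshold does not show that usage was alike. Such tests compare libraries, not conditions.

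Levels of some regions differed several-fold between libraries. Among the 20 regions of the window with at least 100 reads, 4 differed over 2-fold between libraries 1 and 3, and 5 each between libraries 1 and 4, 2 and 3, and 2 and 4. The same rule called 12.8%, 12.2%, 18.5% and 17.7% of the 15359 such regions of the whole table, and with 20 regions in the window 1 region is 5 points. Between libraries 1 and 2 and between libraries 3 and 4 it called 0 of 20, against 2.08% and 1.9% of the table. With 1 library on each side there is no test.

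Among these 20 regions, those past 2-fold in some pair were B, described above, and the regions lettered I to M. The share of the whole table past 2-fold between any 2 libraries was not computed, so their number is not read as a trait of the window. Region J, on the minus strand from 27106062 to 27106083, had 3.45, 2.31, 16.8 and 18.3 CPM, and libraries 3 and 4 were far above the others. The 95% exact Poisson interval was 2.05 to 5.46 CPM in library 1 and 13.6 to 20.5 in library 3. The next region on the minus strand, from 27114130 to 27114143, lay 8047 bases away and had 0.768, 0.924, 4.90 and 3.26 CPM. At both, libraries 3 and 4 were above libraries 1 and 2. Both lay between the histone clusters, outside the position edges used for them. Whether they belong to histone genes was not checked.

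Regions I, K and L ran the other way. Region L, on the plus strand from 28057317 to 28057346, had 11.9, 14.3, 1.40 and 2.51 CPM, with libraries 1 and 2 the highest. Its ratio between libraries 2 and 3 was 10.2, the largest of the 20. It faced a minus-strand region at 28058334, 988 bases away, and another at 28058568, in the tail-to-tail arrangement of converging transcripts. These were the only opposite-strand pairs within 2 kb in the window. The nearer of the 2 had 4.03, 6.01, 2.45 and 3.51 CPM.

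Region K, on the minus strand from 27230913 to 27230915, was 3 bases wide and had 16.3, 11.6, 2.63 and 4.27 CPM. Region I, on the plus strand from 26599352 to 26599381, is the most 5' region of locus 4 and had 11.5, 12.5, 4.20 and 4.52 CPM. Its neighbour 877 bases downstream had 4.61, 5.08, 4.03 and 4.77 CPM. Region M, on the plus strand from 28201250 to 28201270, is the most 3' one of locus 7 and passed 2-fold only between libraries 1 and 4, with 10.7 and 4.77 CPM.

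**Figure D5:**
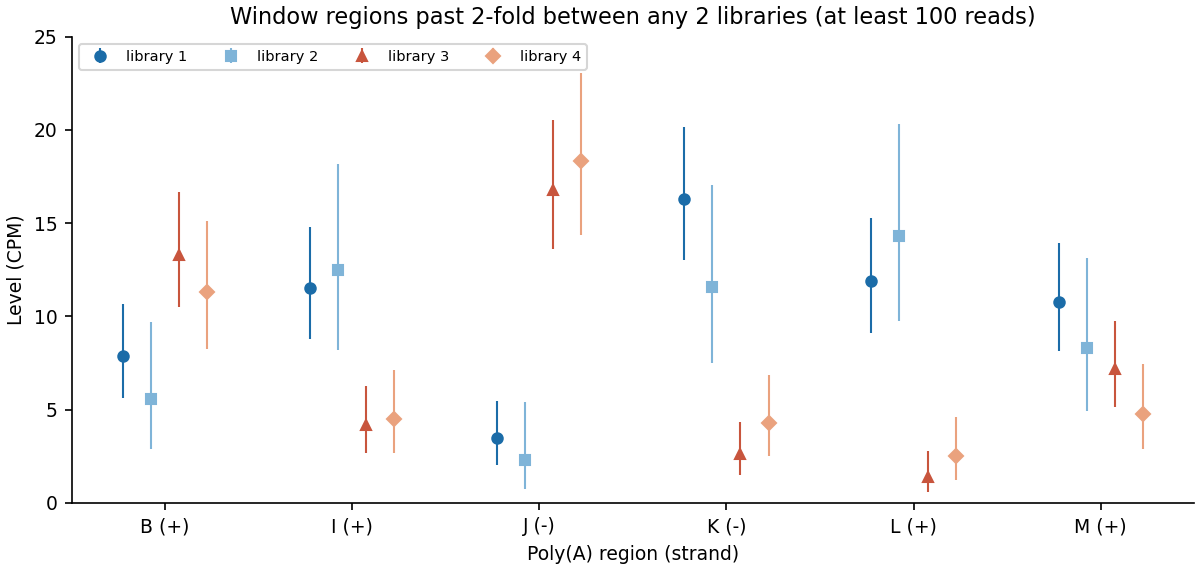
Levels (CPM) by library of the window regions with at least 100 reads that differed over 2-fold between any 2 libraries, with 95% exact Poisson intervals (counting error only). B and J are higher in libraries 3 and 4, I, K and L are higher in libraries 1 and 2, and M differs over 2-fold only between libraries 1 and 4.

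Not all well-read regions varied so. With a minimum of 50 reads, 1 of 34 regions also passed 2-fold between libraries 3 and 4, against 5.07% of the table. The region on the plus strand from 28127221 to 28127252 had 15.4, 14.8, 14.4 and 13.6 CPM and varied least among the 20, by 1.13-fold from its highest to its lowest library. The region at 26469845 on the plus strand had 12.9, 14.3, 16.1 and 18.1 CPM. The region at 27618716 on the minus strand had 9.98, 10.2, 18.6 and 12.0 CPM, with library 3 the highest, 1.86-fold above library 1.

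The remaining 33 regions held 21 to 94 reads each. Of the 53 members, 49 had reads in all 4 libraries (92.5%), against 1287 of 1450 (88.8%) in the rest of chromosome 6. Besides F, a library was at 0 for the regions at 26600944 (library 2) and 28210019 (library 3), and for the region at 26378520 in libraries 1 and 2. The last is on the plus strand and had 20 and 12 reads, or 3.50 and 3.01 CPM, in libraries 3 and 4. The one-sided limits of 3 reads for a count of 0 in libraries 1 and 2 are 0.576 and 1.39 CPM.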

How the data were processed

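Poly(A) site reads of 4 libraries of DICER(ex5) cells were analysed. The authors deposited whole-number read counts for every region in each library, beside its coordinates and strand, per the file headers. RNA was selected on oligo(dT) beads, per the labels' protocols. Bowtie2 2.2.5 and hg19 are named in the submitters' processing notes. The sources used here do not say how regions were built or whether duplicates were removed. A position missing from the table cannot be scored.

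Widths are end minus start plus 1. Counts were scaled to the library total (CPM) and compared on log2(CPM + 1). Regions of a strand within 5 kb were joined into loci. Passing regions had 10 reads or more and 5% or more of their locus. Zones were compared per library by exact sign-flip tests over the 4 libraries, and the share of the most 3' region by Fisher's exact test between libraries over all 5070 loci, on counts thinned to 2163977 reads. The Fisher test was checked on simulated counts with planted changes and otherwise counting error only. The sign-flip test was checked on fixed example values. Python 3.11.15, scipy 1.17.1, edgeR 4.0.16 and DESeq2 1.42.0 (other scalings only) were used. No batch is labelled.

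Named were the histone-cluster and MHC regions, the 5 best-read remaining loci, loci with several passing regions and the regions with the largest ratios between libraries. The planned naming of genes, and of class I, II and III stretches, could not be applied. The members and lists were chosen with earlier results of these data known. Regions under 100 reads named as at 0 in a library, the neighbour of J and the steady regions were chosen after their values were seen, and the whole-window comparison was added once the zones proved small.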

Additional observations from a re-analysis of the deposited data

Results flagged for a closer look

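Dixon's ratio was computed for 62 values over the 4 libraries and passed its 95% limit for 3. Chance gives about 1 in 20, so this is about as many as chance gives. The share of loci with several used ends in the histone clusters, less that in the rest of chromosome 6, had a ratio of 0.934: it was -48.1 points in library 4, against -0.776, -0.776 and 2.55 in the others. Only 2 loci stand behind it, and in library 4 region C fell under the 3-read minimum by the random thinning, from 4 reads. The locus at 28064671 on the plus strand had a ratio of 0.847, with 1.54 CPM in library 1 (8 reads) and 2.98 to 3.23 in the others. The locus at 28245302 had a ratio of 0.870, with 9.21 CPM in library 1 and 7.86 to 8.03 in the others. What sets library 1 apart at the loci at 28064671 and 28245302 was not tested.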

How the results depend on the processing

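No paired analysis was possible because all 4 libraries belong to 1 group. Leaving out a library gave a reversed sign in 2 results: the MHC region against loci ranged from -0.166 to 0.0949 (log2), and the histone-cluster share of loci with several used ends from -16.6 to 0.333 points. In the others the sign held in each of the runs without a library. The level of the MHC region reversed to -1.17 against regions with at least 100 reads, and against loci joined within 1 and 2 kb it was 0.251 and 0.143. The window's share of loci with several used ends turned to 2.85 points with a 10% minimum and to 38.04 with a minimum of 500 reads, where 1 locus was left. With that minimum the histone clusters and the MHC had no loci. The median width of the rest of chromosome 6 was 28 without regions of 5 bases or fewer and 33 with at least 100 reads, and regions of 10 bases or fewer were 15.0% of it. Fisher calls in the window became 2 between libraries 1 and 3 and 2 between libraries 2 and 3 on unthinned counts, where 23.4% and 21.9% of all loci were called, and 1 in each of these pairs when joined within 10 kb, where 12.1% and 17.5% were. With regions of 50 reads admitted, 1 region of 34 passed 2-fold between libraries 3 and 4, against 5.07% of the table. The histone clusters stayed below the rest under every scaling, filter, pseudocount and joining distance tried, at -0.92 to -0.35 by regions and -1.47 to -0.64 by loci, and the window at -0.95 to -0.17 and -1.50 to -0.17. Over the 2 histone-cluster regions with at least 100 reads the median width was 47, against 33 in the rest. Admitting regions across the zone edges left each median width as it was. The cause of these shifts was not tested. The low counts of most members limit precision.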
